A study of Rattus norvegicus with 6 samples.

Results

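The genes described here handle iron, zinc, copper and magnesium: 36 genes with per-pool counts in rat lateral ventricular choroid plexus. They were chosen by name, from a table in which the authors list the 10653 of 29479 Ensembl identifiers that they called different between the ages, 10093 of them with a gene name. The name had to be that of transferrin or its receptors, *Hfe*, ceruloplasmin, hephaestin, a ferric reductase (*Cybrd1*, *Steap*), ferritin, an iron regulatory protein, hepcidin, a heme oxygenase or biliverdin reductase, a metallothionein, a copper chaperone or pump, or a member of the Slc11, Slc30, Slc31, Slc39, Slc40 or Slc41 families. Since a gene is in that table only if the authors had called it on these same pools, the differences between the ages are given below as a description, without p-values. Genes of these families that have no name in that table, *Slc40a1*, *Slc11a2* and *Atp7a* among them, were not analysed here.

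The groups were embryonic day 15 (E15) and adult (6 weeks) Sprague-Dawley rats, none of them treated. Each age had 3 RNA samples, and each sample pooled both lateral ventricular plexuses of 10 animals, so the spread between samples is that between pools. The plexus was taken whole and held stroma, vessels and blood beside the epithelium, although the title of the series speaks of epithelial cells. In such tissue, fewer cells of a type and less RNA per cell cannot be told apart.

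The choroid plexus epithelium forms the barrier between blood and cerebrospinal fluid (CSF), and metals reach the CSF largely through cells rather than between them. Iron travels bound to transferrin, is taken up through the transferrin receptor, is reduced to cross membranes, is stored in ferritin, and is oxidised again by a copper ferroxidase when it leaves the cell. Zinc is moved out of the cytosol by the Slc30 (ZnT) family and into it by the Slc39 (ZIP) family, while metallothioneins bind it in between. Copper enters through Slc31a1, is passed to chaperones, and leaves through the pumps Atp7a and Atp7b.

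Library totals lay between 17875089 and 19204440 counts. The ages differed in composition, the 10 most abundant genes holding 4.86 to 5.90% of the counts at E15 and 24.2 to 27.3% in the adult. Normalized counts below were scaled by TMM factors (edgeR's trimmed mean of M values), which were 1.32 to 1.33 in embryonic pools and 0.735 to 0.773 in adult ones. Pools of the same age were not mere repeats of one library (chi-square per degree of freedom 5.43 to 56.8), and E15 replicate 1 stood apart from the other E15 pools (Spearman's rho over genes 0.976 and 0.980, against 0.996 between the other pools). Marker names also came from the authors' table of called genes, so how many of a list were called is largely set in advance. Named there were 6 of 9 epithelial, 8 of 14 red cell, 6 of 12 macrophage and 8 of 10 oligodendrocyte markers. For astrocytes these were 4 of 7, for endothelium 8 of 10 and for proliferation 4 of 8. All mesenchymal and developing neuron markers were named. Levels of the markers differed with age: the 6 named epithelial markers, all called in the adult, had summed levels of 431990 to 534342 normalized counts in embryonic pools and 3950333 to 4889142 in adult ones. In contrast, the 8 named red cell markers had summed levels of 85647 to 139069 in embryonic pools and 9745 to 13698 in adult ones, with *Gata1* at 0 counts in the adult. All 9 developing neuron markers (1655 to 5196 and 136 to 483) and all 4 named proliferation markers (6919 to 8434 and 133 to 162) were called at E15 as well.

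Of the 36 metal genes, 10 were called higher at E15 and 25 higher in the adult, with *Steap4* not called. Over all 16643 genes tested, 34.7% were called at E15 and 29.3% in the adult, but the way the names were obtained sets the members' share, and nothing is read from it. With a fold change above 2 as well, 9 of the metal genes were called at E15 and 16 in the adult (24.9% and 17.9% of all genes tested). The median log2 fold change (E15 minus adult) of the 36 genes was -0.85, beside 0.14 over all genes tested and 0.73 over the 9958 that have a name, and it does not move when *Tfr2* is set to its bound. The normalized counts of the pools did not overlap between the ages for any of the 36 genes, which also held for 70.1% of all genes tested (10 metal genes were higher at E15, against a background of 38%, and 26 in the adult, against 32.1%).

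The scale set the direction of the smaller differences. When pools were scaled by total counts only, the median of all genes tested moved from 0.14 to 0.94, and 8 metal genes with small adult differences changed sign: *Fth1*, *Aco1*, *Slc30a9*, *Slc39a1*, *Slc39a3*, *Slc39a7*, *Atox1* and *Ccs*. The direction of the other 28 was the same under each of the 5 scalings used.

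**Figure D1:**
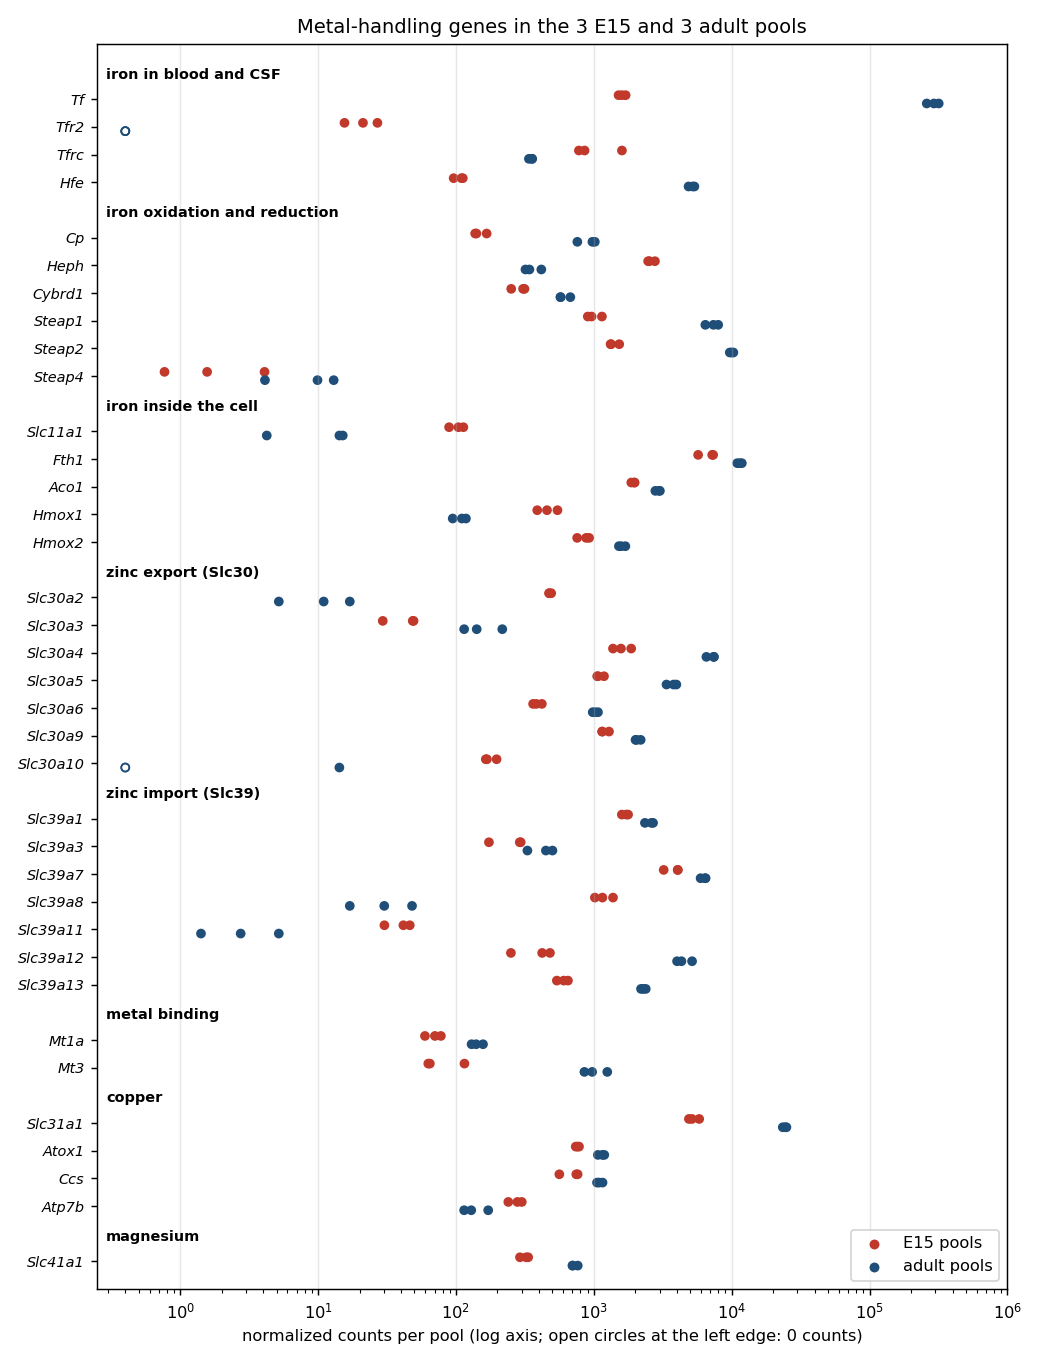
Normalized counts (TMM scale, log axis) of the 36 metal genes in each pool, grouped by role, with E15 pools in red, adult pools in blue and open circles at the left edge for 0 counts. *Tf* is at the far right in the adult, with means of 1604 at E15 and 289903 in the adult, while *Slc30a2*, *Slc39a8* and *Slc30a10* have their E15 pools far above the adult ones; *Steap4* pools almost touch.

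Among the proteins that carry iron, transferrin showed the widest separation. *Tf* (ENSRNOG00000030625), which encodes the iron carrier of plasma and CSF, had 2078, 1963 and 2041 raw counts in embryonic pools, against 223984, 200005 and 213233 in adult ones. It was enriched 181-fold in the adult (log2 fold change -7.50 ± 0.14, SE). The gene took 0.0104 to 0.0116% of each E15 library and 1.04 to 1.21% of each adult library, and it ranked 35 by fitted fold in the adult direction among the 16643 genes tested. The identifier is named *Tf* in the authors' table but carries there the description of *Srprb*, a subunit of the signal recognition particle receptor. These genes are neighbours in the RefSeq annotation (GRCr8) with 0 protein-coding genes between them, so a share of *Srprb* reads in these counts cannot be told apart from *Tf*.

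Transferrin is also made by oligodendrocytes. The 8 named oligodendrocyte markers, 2 called at E15 and 5 in the adult, summed to between 1802 and 1928 normalized counts in the E15 pools. In adult replicates 1, 2 and 3 they summed to 9165, 4716 and 3489, whereas *Tf* in the same pools had 317132, 259710 and 292866 normalized counts. Both were highest in adult replicate 1, yet the oligodendrocyte sum spread much more widely between adult pools than *Tf* did. The epithelial marker sum was highest in that pool too (4889142, against 4062650 and 3950333 in adult replicates 2 and 3). The part of either cell type in the *Tf* counts was not tested.

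*Hfe* encodes a partner of the transferrin receptors that takes part in iron sensing. It had 137, 125 and 140 counts in embryonic pools, against 3788, 3747 and 3796 in adult ones, with no pool near those of the other age. The enrichment in the adult was 48.5-fold (log2 fold change -5.60 ± 0.13, SE).

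The transferrin receptors lay on the other side. *Tfrc*, the receptor for cellular iron uptake, had 1954, 1113 and 994 counts in embryonic pools, against 239, 274 and 260 in adult ones (mean normalized counts 1079 ± 453 and 350.4 ± 10.4, SD, n = 3), an enrichment of 3.08-fold at E15. The E15 spread came from replicate 1, without which the fold was 2.33. *Tfr2*, an iron-sensing receptor known from liver and erythroid cells, had only 19, 35 and 27 counts at E15 and 0 in every adult pool. Against a limit of 3 counts over the adult pools it was at least 15.7-fold higher at E15, and this bound fell to 10.2 when adult replicate 2 was left out, since fewer pools then stand behind the 0. Red cell precursors are rich in transferrin receptor. E15 replicate 1, the highest in *Tfrc*, had the lowest red cell marker sum of the E15 pools (85647, against 139069 and 129570 in replicates 2 and 3). The same pool was the highest of the E15 pools in proliferation markers (8434, against 6919 and 7594) and in developing neuron markers (5196, against 1655 and 3748). The part of any of these cells in the receptor counts was not tested beyond this.

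Enzymes that change the charge of iron differed in direction. The ferroxidases *Heph* and *Cp*, which both oxidise iron for export, differed in opposite directions. *Heph*, the membrane-bound enzyme, had 3391, 3290 and 3159 counts in embryonic pools, against 241, 246 and 303 in adult ones, a 7.23-fold enrichment at E15 (log2 fold change 2.85 ± 0.13, SE). *Cp*, the secreted or membrane-anchored ceruloplasmin, had 172, 179 and 213 counts in embryonic pools, against 690, 783 and 553 in adult ones, an enrichment of 6.17-fold in the adult (log2 fold change -2.63 ± 0.16, SE). Within a pool the raw *Heph* to *Cp* count ratio was 19.7, 18.4 and 14.8 in embryonic pools, against 0.349, 0.314 and 0.548 in adult ones. Such a ratio needs no scaling between libraries, and its geometric mean differed 44.7-fold between the ages.

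Marker lists of other cell types moved in the same direction as *Heph*. The 8 named endothelial markers had summed levels of 8406 to 11747 normalized counts in embryonic pools and 929 to 1652 in adult ones, all 8 being called at E15. The 7 mesenchymal markers had summed levels of 42047 to 55813 in embryonic pools and 15930 to 16544 in adult ones, with 5 called at E15 and 2 in the adult. Between E15 pools, *Heph* was highest in replicate 1 (2775 normalized counts, against 2534 and 2477), where both marker sums were lowest. Single markers differed in this, since *Pecam1* of the endothelial list (494, against 420 and 339) and *Lum* of the mesenchymal list (4056, against 3065 and 2518) were highest in that pool too. The part of vessels and stroma in the *Heph* counts was not tested beyond this.

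Of the ferric reductases, which prepare iron for transport, *Steap1* and *Steap2* stood out by moving together. *Steap1*, a STEAP protein that acts together with its relatives, had 1399, 1251 and 1153 counts in embryonic pools, against 5635, 4958 and 5363 in adult ones (7.23-fold enriched in the adult). *Steap2*, an iron and copper reductase, had 1867, 1732 and 1688 counts in embryonic pools, against 7070, 7458 and 7486 in adult ones (7.16-fold). The *Steap2* to *Steap1* ratio was 1.33, 1.38 and 1.46 in embryonic pools, against 1.25, 1.5 and 1.40 in adult ones, so the ages overlapped and their geometric means differed 1.01-fold. *Cybrd1*, the duodenal reductase, had 375, 408 and 321 counts in embryonic pools, against 406, 441 and 492 in adult ones, which after scaling gave 2.09-fold in the adult. *Steap4*, a reductase of fat and inflamed tissue, was close to undetected, with 1 to 5 counts in the E15 pools and 3 to 10 in the adult pools. Its log2 fold change of -2.03 ± 0.82 (SE) was not called. Leaving out E15 replicate 1 gave 7.08-fold in the adult and a call, and a call was also made without adult replicate 3.

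*Steap1* and *Steap2* are neighbours on rat chromosome 4, with 0 protein-coding genes between them in the RefSeq annotation. Their promoters are shown because the pair kept its ratio across the ages. Each is 300 bases of RefSeq sequence on the GRCr8 build (250 before the start site and 50 after it), 5′ to 3′, with cores of the metal response element in capitals. The core searched was TGCGCNC or TGCACNC on either strand, and overlapping matches form a single stretch.
Steap1, chr4:29231559-29231858, plus strand: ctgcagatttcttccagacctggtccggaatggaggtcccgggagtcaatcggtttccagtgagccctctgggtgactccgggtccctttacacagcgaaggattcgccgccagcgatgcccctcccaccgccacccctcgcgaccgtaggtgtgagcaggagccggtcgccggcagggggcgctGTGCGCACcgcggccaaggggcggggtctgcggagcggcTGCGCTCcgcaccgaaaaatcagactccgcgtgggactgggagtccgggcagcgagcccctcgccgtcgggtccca
Steap2, chr4:29303131-29303430, plus strand: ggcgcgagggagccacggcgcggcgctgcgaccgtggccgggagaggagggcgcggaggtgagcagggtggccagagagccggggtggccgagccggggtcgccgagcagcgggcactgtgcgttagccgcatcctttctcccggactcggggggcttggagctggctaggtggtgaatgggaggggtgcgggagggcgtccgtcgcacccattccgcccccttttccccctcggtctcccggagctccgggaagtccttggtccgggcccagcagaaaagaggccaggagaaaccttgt
The *Steap1* promoter holds 2 stretches and the *Steap2* promoter 0, so the 2 windows differ in these letters although the genes moved together.

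Inside the cell, the inducible heme oxygenase was higher at E15 under each scaling, while the small difference of the constitutive form rested on the scale. *Hmox1*, the inducible heme oxygenase that frees iron from heme, had 475, 594 and 695 counts in embryonic pools, against 78, 91 and 69 in adult ones, an enrichment of 4.30-fold at E15. *Hmox2*, its constitutive relative, had 925, 1142 and 1179 counts in embryonic pools, against 1074, 1218 and 1233 in adult ones (1.87-fold in the adult on the TMM scale). Raw counts of *Hmox2* overlapped between the ages, and with total counts only its log2 fold change was -0.10 and was not called. The *Hmox1* to *Hmox2* ratio was 0.514, 0.520 and 0.589 in embryonic pools, against 0.0726, 0.0747 and 0.0560 in adult ones. This is an 8.03-fold difference of the ratio, which does not depend on scaling. *Slc11a1*, a metal exporter of phagosome membranes known from macrophages, had 109, 147 and 133 counts in embryonic pools, against 3, 11 and 11 in adult ones (8.97-fold at E15). The 6 named macrophage markers summed to between 1472 and 1879 normalized counts at E15 and to 2738 to 3325 in the adult. Of these, 2 were called at E15 (*Csf1r*, 2.27-fold, and *C1qb*, 1.67-fold). The 3 called in the adult were *Lyz2*, *Cd14* (5.55-fold) and *C1qa* (1.67-fold). The adult excess of the sum rested on *Lyz2* (1318 to 1857 in adult pools). Without *Lyz2* the sums overlapped between the ages, at 1442 to 1837 and 1420 to 1604, while the single markers still differed in direction. The part of these cells in the *Slc11a1* counts was not tested beyond this.

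*Fth1*, the ferritin heavy chain that stores iron, had 6974, 9522 and 9208 counts in embryonic pools, against 8095, 8449 and 8622 in adult ones. On the TMM scale this was 1.69-fold in the adult, and with total counts only the log2 fold change was 0.05, on the E15 side. Ferritin genes have near-identical copies elsewhere in the genome, and reads without a unique place had been discarded, so these counts are uncertain. *Aco1*, which encodes iron regulatory protein 1, had 2414, 2428 and 2507 counts in embryonic pools, against 1974, 2293 and 2194 in adult ones. Its 1.51-fold in the adult likewise passed to the E15 side (log2 fold change 0.21) with total counts only.

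**Figure D2:**
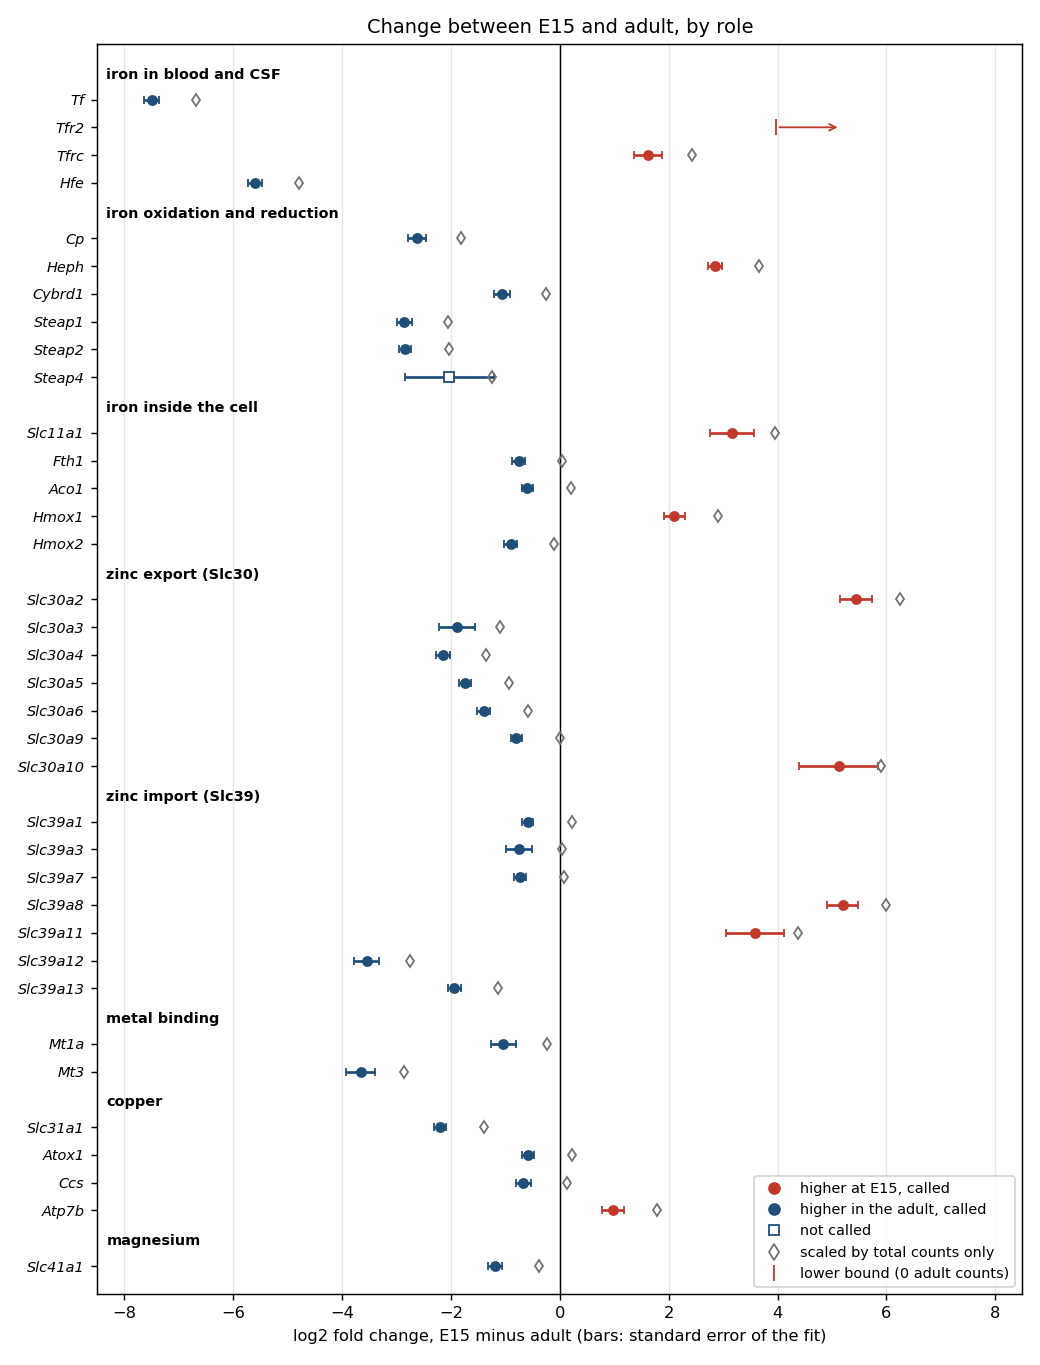
Log2 fold change (E15 minus adult) of each metal gene by role, with bars for the standard error of the fit (TMM scale), red for higher at E15, blue for higher in the adult, an open square for *Steap4*, which was not called, and grey diamonds for scaling by total counts only. *Tf* lies furthest to the left at -7.50, *Slc30a2*, *Slc39a8* and *Slc30a10* furthest to the right between 5.12 and 5.44, the *Tfr2* tick marks its lower bound of 15.7-fold, and the diamonds of 8 genes fall on the other side of 0.

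The Slc30 and Slc39 genes divided within each family on the TMM scale. Of the 7 Slc30 genes 2 were higher at E15 and 5 in the adult. For the 7 Slc39 genes the counts were also 2 and 5. With total counts only, 1 Slc30 gene (*Slc30a9*) and 3 Slc39 genes (*Slc39a1*, *Slc39a3* and *Slc39a7*) passed to the E15 side. Over all genes tested, 34.7% were called at E15 and 29.3% in the adult. Since the authors' calls set the members, nothing is read from these counts. Promoters are shown for both metallothioneins, for the exporter *Slc30a2* (enriched at E15) and for the exporter *Slc30a4* (enriched in the adult), since metallothionein genes are textbook targets of the zinc-sensing factor Mtf1, which binds metal response elements. The sequences are 300 bases of RefSeq sequence on GRCr8, 5′ to 3′, with the element's cores in capitals as above.
Mt1, chr19:10832926-10833225, minus strand: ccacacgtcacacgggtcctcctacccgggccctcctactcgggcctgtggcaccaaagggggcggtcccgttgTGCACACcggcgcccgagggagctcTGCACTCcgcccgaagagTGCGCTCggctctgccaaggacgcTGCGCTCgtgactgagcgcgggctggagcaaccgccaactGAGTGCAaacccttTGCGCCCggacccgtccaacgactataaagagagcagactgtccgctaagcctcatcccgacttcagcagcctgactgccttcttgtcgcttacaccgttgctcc
Mt3, chr19:10856031-10856330, minus strand: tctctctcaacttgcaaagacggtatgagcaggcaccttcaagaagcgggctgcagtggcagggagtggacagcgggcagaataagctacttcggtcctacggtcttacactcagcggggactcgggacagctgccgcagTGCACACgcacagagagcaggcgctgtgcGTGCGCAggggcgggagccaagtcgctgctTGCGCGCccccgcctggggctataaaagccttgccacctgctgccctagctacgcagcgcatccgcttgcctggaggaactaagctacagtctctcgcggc
Slc30a2, chr5:151843201-151843500, plus strand: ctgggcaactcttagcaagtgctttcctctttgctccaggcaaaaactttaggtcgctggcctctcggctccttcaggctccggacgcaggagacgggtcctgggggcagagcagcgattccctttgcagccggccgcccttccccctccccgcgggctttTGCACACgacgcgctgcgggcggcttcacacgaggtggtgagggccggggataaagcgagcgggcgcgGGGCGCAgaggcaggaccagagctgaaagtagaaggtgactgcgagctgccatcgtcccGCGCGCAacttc
Slc30a4, chr3:130228839-130229138, minus strand: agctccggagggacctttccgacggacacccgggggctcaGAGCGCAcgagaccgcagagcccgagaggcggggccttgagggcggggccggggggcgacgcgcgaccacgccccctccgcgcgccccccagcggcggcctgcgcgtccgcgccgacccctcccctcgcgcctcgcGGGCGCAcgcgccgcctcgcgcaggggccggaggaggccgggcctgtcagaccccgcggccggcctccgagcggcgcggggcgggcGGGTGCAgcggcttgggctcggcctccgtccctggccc
The *Mt1* promoter (the RefSeq name of *Mt1a*) holds 6 stretches, and *Mt3*, *Slc30a2* and *Slc30a4* hold 3 each. Of the other exporters higher in the adult on the TMM scale, *Slc30a5* holds 1 stretch and *Slc30a3*, *Slc30a6* and *Slc30a9* hold 0. A relation between stretches and direction was not tested. A second start site of *Slc30a2* in RefSeq holds 0.

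A RefSeq promoter could be matched for 30 of the 36 genes, without *Hfe*, *Slc11a1*, *Fth1*, *Hmox1*, *Slc30a10* and *Slc41a1*. At least 1 metal response element core was found in 16 of these (53.3%), and in 24.2% of all 33469 promoters in the table or 27.6% of the 21851 that belong to protein-coding genes. At least 3 stretches were found in 5 members, the fifth being *Slc39a7*, and in 1.13% of all promoters or 1.41% of the protein-coding ones. The antioxidant element core TGACNNNGC was found in 6 members (20%, against 12.1% of all promoters and 12.5% of the protein-coding ones). The hypoxia element core ACGTG was found in 10 (33.3%, against 19.3% and 19.8%). Members were counted by their first start site only, whereas the background shares count every promoter, second start sites included. Both strands were searched, matches of different cores were counted separately and may overlap, and the shares were not matched for base composition. A match describes letters and not a binding site.

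*Slc30a2*, a vesicular zinc exporter best known from mammary gland, had 582, 615 and 626 counts in embryonic pools, against 12, 4 and 8 in adult ones. It was 43.5-fold enriched in the embryo (log2 fold change 5.44 ± 0.30, SE), and its E15 pools were the closest together of the Slc30 genes (480.3 ± 9.31 normalized counts, SD, n = 3). On these few adult counts, its fold was 57.8 without adult replicate 1 and 33.3 without adult replicate 2. *Slc30a10*, which is known as a manganese exporter despite its family, had 205, 256 and 210 counts in embryonic pools, against 0, 11 and 0 in adult ones. All adult counts thus came from replicate 2. The fold at E15 was 34.9 with all pools, 23.4 without adult replicate 1, 23.2 without adult replicate 3, and at least 84.5 without adult replicate 2.

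The remaining 5 exporters of the family were higher in the adult on the TMM scale. *Slc30a4*, which moves zinc into vesicles, had 2281, 1788 and 2007 counts in embryonic pools, against 4629, 5718 and 5398 in adult ones (4.44-fold). *Slc30a5*, which works with *Slc30a6* to bring zinc to enzymes of the secretory pathway, had 1448, 1395 and 1349 counts in embryonic pools, against 2675, 2592 and 2889 in adult ones (3.35-fold). *Slc30a6* had 513, 471 and 488 counts in embryonic pools, against 757, 785 and 715 in adult ones (2.64-fold). The *Slc30a6* to *Slc30a5* ratio was 0.338 to 0.362 at E15 and 0.247 to 0.303 in the adult, a 1.27-fold difference, and the ages did not overlap. *Slc30a3*, the zinc transporter of synaptic vesicles, had 36, 64 and 62 counts in embryonic pools, against 81, 167 and 103 in adult ones (3.71-fold), with adult replicate 2 the highest. *Slc30a9* differed 1.74-fold, in the adult direction on the TMM scale and with a log2 fold change of 0.01 by total counts.

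Among the importers, too, relatives differed in opposite directions. *Slc39a8* (ZIP8), an importer of zinc, manganese and iron, had 1683, 1499 and 1298 counts in embryonic pools, against 12, 37 and 22 in adult ones, a 36.8-fold enrichment at E15 (log2 fold change 5.20 ± 0.29, SE). The fold was 29.5 without adult replicate 1 and 48.6 without adult replicate 2. *Slc39a12* (ZIP12), a zinc importer known from the brain, had 306, 548 and 613 counts in embryonic pools, against 2836, 3973 and 3146 in adult ones, an enrichment of 11.7-fold in the adult (log2 fold change -3.55 ± 0.23, SE). The *Slc39a12* to *Slc39a8* count ratio within a pool was 0.182, 0.366 and 0.472 in embryonic pools, against 236, 107 and 143 in adult ones, a 487-fold difference of the geometric means. No adult pool came near an E15 pool.

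*Slc39a13* (ZIP13), which releases zinc from Golgi and vesicles and is known from connective tissue, had 659, 843 and 771 counts in embryonic pools, against 1681, 1762 and 1601 in adult ones (3.83-fold in the adult). *Slc39a11*, a less studied relative, had 37 to 59 counts at E15 and 1 to 4 in the adult, which is 12-fold at E15 on few adult counts. The remaining importers differed least. *Slc39a1* and *Slc39a3* of the plasma membrane and *Slc39a7* of the endoplasmic reticulum were between 1.5-fold and 1.69-fold in the adult on the TMM scale, and between 0.05 and 0.22 on the E15 side of 0 (log2) with total counts only. The call of *Slc39a3* was lost without adult replicate 2 and without adult replicate 3, at log2 fold changes of -0.66 and -0.75.

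Metallothioneins bind zinc and copper in the cytosol. *Mt3*, the form known from neurons and astrocytes, had 77, 84 and 147 counts in embryonic pools, against 687, 964 and 622 in adult ones, an enrichment of 12.6-fold in the adult (log2 fold change -3.66 ± 0.26, SE). *Mt1a* had 86, 101 and 76 counts in embryonic pools, against 111, 100 and 102 in adult ones, 2.05-fold in the adult after scaling. Raw counts of *Mt1a* overlapped between the ages, so its difference rests on the scale. Metallothionein genes resemble each other closely, which makes counts of uniquely placed reads uncertain.

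*Mt3* and *Slc39a12* were both highest in adult replicate 2, at 1252 and 5159 normalized counts, against 854 to 973 and 4015 to 4321 in the other adult pools. The 4 named astrocyte markers, 1 called at E15 and 3 in the adult, also summed highest there, at 6254 normalized counts against 2447 and 2866. Developing neuron markers were highest in that pool too (483, against 142 and 136). So were endothelial, red cell and mesenchymal sums, but not epithelial, oligodendrocyte, macrophage or proliferation ones. Among E15 pools, *Mt3* (115, against 63.0 and 64.7) and *Slc39a12* (481, against 250 and 422) were highest in replicate 3. The astrocyte sum was lowest there (3202, against 4210 and 3505). The astrocyte markers did not all move one way with age: *Gfap* (8.54-fold), *Aqp4* (19.99-fold) and *S100b* (130-fold) were higher in the adult, as *Mt3* and *Slc39a12* were, and *Slc1a3* was 4.49-fold higher at E15. Without *Slc1a3* the sums were 158 to 192 in embryonic pools and 1872 to 4876 in adult ones. The part of astrocytes in these counts was not tested beyond this.

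**Figure D3:**
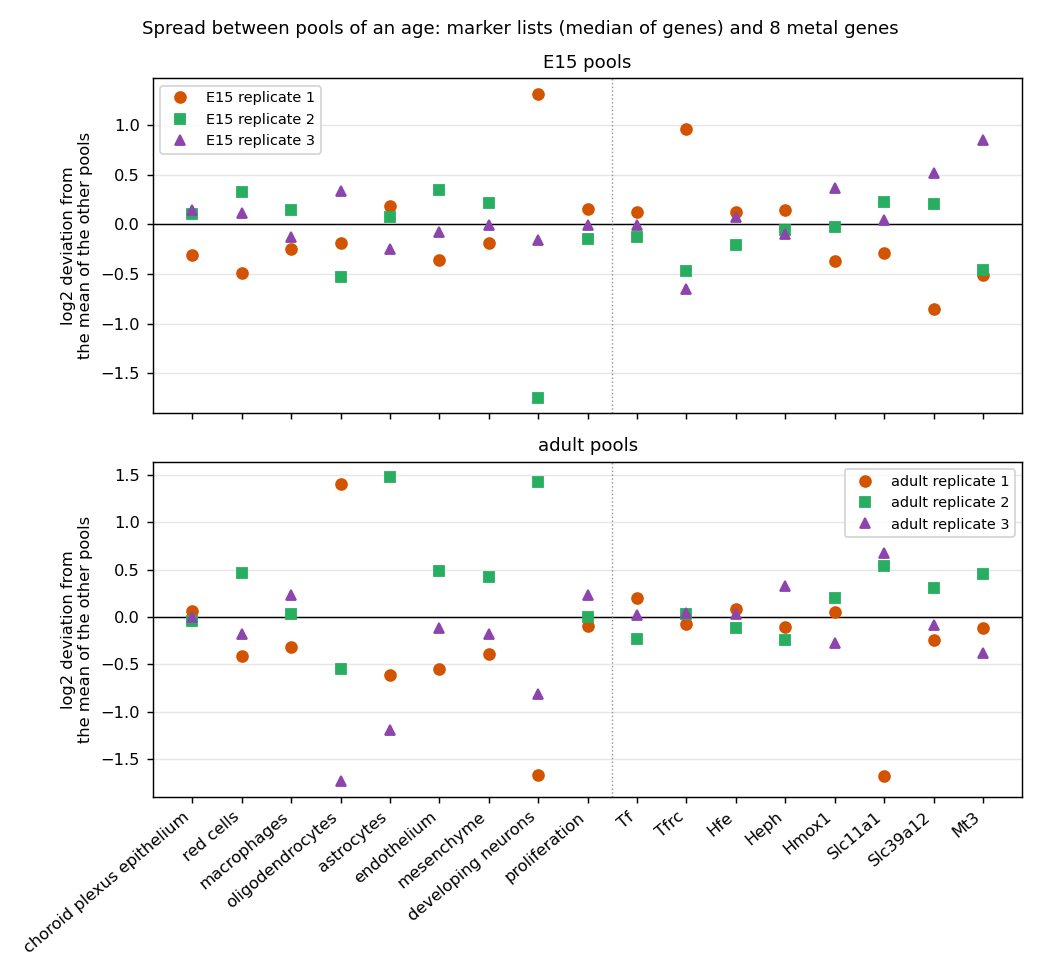
Log2 deviation of each pool from the mean of the other pools of its age (above: E15, below: adult), as the median over each marker list (left of the dotted line) and for 8 metal genes (right of it), so that a point at 0 is a pool like its group. Adult replicate 1 is highest in oligodendrocyte markers (1.41), in epithelial markers (0.06) and in *Tf* (0.20). Adult replicate 2 is highest in astrocyte, developing neuron, endothelial, red cell and mesenchymal markers, *Slc39a12* and *Mt3*. E15 replicate 1 is highest in *Tfrc* and in developing neuron markers and lowest in red cell markers.

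Of the 4 copper genes among the 36, the importer had the largest fold. *Slc31a1* (Ctr1), the high-affinity copper importer, had 7098, 6354 and 6567 counts in embryonic pools, against 17291, 18072 and 18155 in adult ones. It was enriched 4.6-fold in the adult (log2 fold change -2.20 ± 0.10, SE), with little spread in either group. *Atp7b*, a copper pump of the secretory pathway, had 293, 390 and 356 counts in embryonic pools, against 81, 132 and 94 in adult ones, 1.97-fold at E15. The *Slc31a1* to *Atp7b* ratio was 16.3 to 24.2 at E15 and 137 to 213 in the adult, a 9.19-fold difference. The chaperones differed little: *Atox1*, which serves the pumps, had 954, 990 and 943 counts in embryonic pools, against 815, 917 and 779 in adult ones. *Ccs*, which serves superoxide dismutase, had 687, 969 and 973 counts in embryonic pools, against 817, 812 and 795 in adult ones. They were 1.5-fold and 1.59-fold in the adult on the TMM scale, but at log2 fold changes of 0.22 and 0.13 on the E15 side with total counts only. The *Atox1* to *Ccs* ratio overlapped between the ages (0.969 to 1.39 at E15 and 0.980 to 1.13 in the adult).

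*Slc41a1*, a magnesium transporter of the plasma membrane, was the single magnesium gene of the group. It had 356, 434 and 412 counts in embryonic pools, against 540, 540 and 511 in adult ones, which is 2.28-fold in the adult. Raw counts of the ages did not overlap.

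**Figure D4:**
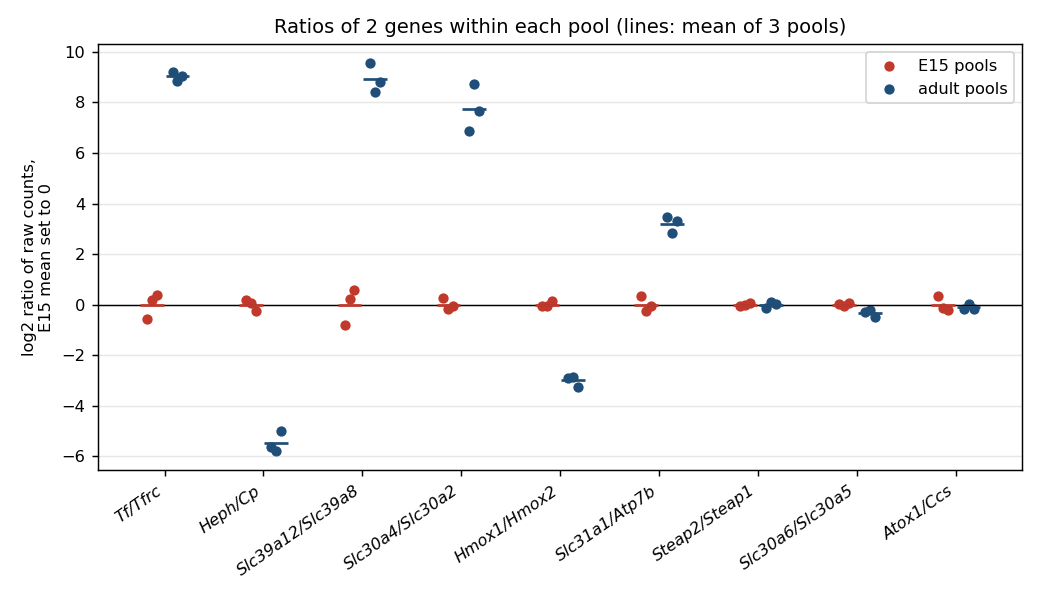
Log2 ratio of the raw counts of gene pairs within each pool, with the E15 mean of each pair set to 0, red for E15 pools, blue for adult pools and lines for means of 3 pools. The ratio of *Tf* to *Tfrc* differs 526-fold between the ages and that of *Slc39a12* to *Slc39a8* 487-fold, *Heph* to *Cp* moves 44.7-fold the other way, and *Steap2* to *Steap1* and *Atox1* to *Ccs* overlap.

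Ratios between genes with opposite directions were the widest of the pairs compared, which follows from the folds of the genes and is no separate result. The *Tf* to *Tfrc* ratio was 1.06, 1.76 and 2.05 in embryonic pools, against 937, 730 and 820 in adult ones. The *Slc30a4* to *Slc30a2* ratio was 2.91 to 3.92 at E15 and 386 to 1430 in the adult, with a wide adult spread because *Slc30a2* had at most 12 counts there. These values describe how the proportions shifted and not the amounts of each RNA, since genes differ in length. The 36 genes together took 0.264 to 0.268% of the counts at E15 and 1.43 to 1.59% in the adult. Without *Tf* the shares were 0.253 to 0.257% and 0.379 to 0.399%.

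Other genes of metal handling were taken from a list of 77, of which 40 have a name in the authors' table and could be described under the same limit. Of these, 8 were called at E15 and 29 in the adult, with a median log2 fold change of -0.80, and *Hp*, *Lrp1* and *Tmem163* were not called. Over all genes tested, 34.7% were called at E15 and 29.3% in the adult. Since the 40 were named through the authors' calls, nothing is read from their share or from the subgroup counts below. With total counts only, 10 of the 40 changed sign. All 6 genes of iron uptake and regulation were called in the adult, among the 16 genes of mitochondrial iron and heme 6 were called at E15 and 8 in the adult, and among 9 copper genes 1 and 8. Of 7 magnesium genes 1 was called at E15 and 6 in the adult, and of 2 zinc genes *Mtf1* was called in the adult, with a sign that turned with total counts.

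Of the other metal genes, 5 passed the naming rule on the E15 side. *Alas2*, the erythroid enzyme that begins heme synthesis, had 1015, 1537 and 1486 counts in embryonic pools, against 39, 64 and 44 in adult ones (15.9-fold at E15), and it is itself among the red cell markers. *Alad*, the next enzyme of the pathway, was 2.66-fold, *Hebp2*, a heme-binding protein, 3.05-fold and the efflux pump *Abcg2*, which also carries porphyrins, 11.6-fold enriched at E15. *Lox*, a copper enzyme that crosslinks collagen, had 270, 424 and 430 counts in embryonic pools, against 1, 9 and 1 in adult ones, which is 58.0-fold at E15. Without adult replicate 2 only 2 adult counts were left, and the ratio of the scaled counts was 212 (exact binomial 95% interval 58.7 to 1756, counting error only). The red cell markers, which include *Alas2* and all 8 of which were called at E15, moved in the same direction as *Alad* and *Hmox1*. So did the 8 endothelial, 9 developing neuron and 4 proliferation markers that were named, all called at E15. The 6 epithelial markers were all called in the adult, and the remaining lists were mixed. The part of any of these cells in the results for *Alas2*, *Alad* and *Hmox1* was not tested.

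The adult side was led by *Lcn2*, a siderophore-binding protein of inflammation. It had 5, 16 and 14 counts in embryonic pools, against 373, 396 and 327 in adult ones (53.4-fold in the adult). *Sod3*, the extracellular copper and zinc superoxide dismutase, had 531, 910 and 828 counts in embryonic pools, against 10439, 11944 and 10604 in adult ones (25.1-fold), whereas the cytosolic *Sod1* was 3.36-fold in the adult. Enrichment in the adult was also found for the magnesium genes *Nipa1* (7.73-fold), *Cnnm2* (5.12-fold) and *Trpm7* (4.45-fold). *Nfs1*, the sulfur donor of iron-sulfur clusters, was 6.43-fold, *Prnp*, the copper-binding prion protein, 5.35-fold and *Fbxl5*, which targets an iron regulatory protein for breakdown, 4.10-fold in the adult. *Bmp6*, the signal that raises hepcidin, was 3.64-fold, *Exoc6*, which is needed for transferrin recycling, 3.02-fold and the copper chaperone *Cox17* 2.45-fold in the adult.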

How the data were processed

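RNA of lateral ventricular choroid plexus was compared between 3 E15 and 3 adult pools, grouped and numbered as in the labels. Deposited values were raw counts for each Ensembl gene, made by the authors from trimmed 100 bp single end reads with Bowtie 0.12.7 (Ensembl rat genome, release 61, unique placements only) and HTSeq 0.4.7p4 (union option), without normalization. A second table deposited by the authors holds log2 fold changes, log2 abundances and p-values from edgeR 2.4.0 for called genes; only its names and descriptions were used, never these values.

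Counts were tested with edgeR 4.0.16 in R 4.3.3 (estimateDisp, glmQLFit, glmQLFTest, TMM factors, age as the only term) over the 16643 genes with more than 10 counts in all, with Benjamini-Hochberg adjustment and a threshold of 0.05. The biological coefficient of variation was 18.2%. Normalized counts are scaled to a library of 19267327 counts. An age with 0 counts was held to 3 counts over its pools, which covers counting error only. Alternatives were 4 other scalings, 2 other filters, the DESeq2 1.42.0 Wald test, limma-voom (limma 3.58.1), the exact test with a common dispersion, a replicate block, each library left out, and a fold above 2. The test was tried on simulated counts first.

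The members, the list of other metal genes and the marker lists were chosen with earlier results of these data known. Marker sums without 1 gene (*Slc1a3*, *Lyz2*) were added after their values were seen. Per-pool values are given for members with a mean normalized count above 100 at the higher age and a fold above 2, and for the best known member of each role; for *Tfr2* they are given beside its bound. The 77 other genes were to be tested only if identifiers could be paired with names outside the authors' table. No such pairing was available here, so the 40 named there are described. Of these, genes called with a fold above 2 and a mean above 100 are named, at most 12 in each direction. Promoters came from RefSeq (GRCr8). Protein sequences were not used here. Figures were made with Python 3.11.15, pandas 2.3.3 and matplotlib 3.10.9.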

Additional observations from a re-analysis of the deposited data

How the results depend on the processing

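The scale between the ages mattered most. With total counts only, the metal genes called in the adult fell to 14 and the other metal genes called in the adult to 15, while the calls over all genes became 9799 at E15 and 2292 in the adult, so that 81% of calls lay at E15 instead of 54.2%. Under that scaling 8 metal genes turned to the E15 side (log2 fold change), *Fth1* at 0.048, *Aco1* at 0.21, *Slc30a9* at 0.0092, *Slc39a1* at 0.22, *Slc39a3* at 0.047, *Slc39a7* at 0.075, *Atox1* at 0.22 and *Ccs* at 0.13, and *Cybrd1*, *Hmox2* and *Mt1a* lost their call in the adult direction. Leaving the 10 most abundant genes out of the totals gave 3196 calls in the adult over all genes (71.6% of calls at E15), with 7 metal genes losing their call and none turning. Asking for a fold above 2 left 16 metal genes, 17 other metal genes and 2979 of all genes in the adult. Leaving out 1 library at a time gave 10 to 10 metal genes at E15 and 24 to 26 in the adult, 7 to 8 and 29 to 30 other metal genes, and 5009 to 6218 and 4327 to 5449 of all genes. *Slc39a3* lost its call without adult replicate 2 or 3, and *Steap4* gained one without E15 replicate 1 or adult replicate 3, with limma-voom and with the exact test. With the replicate number as a block the counts were 10 and 25 metal genes, 7 and 30 other metal genes, and 5320 and 4608 of all genes. The numbers do not pair the pools: deviations from the age means correlated over genes at -0.0072, -0.011 and -0.038 for equal numbers and between -0.019 and 0.041 for unequal ones. Scaling by DESeq2 size factors or upper quartiles, the DESeq2 test and the filters kept the direction and side of the threshold of each metal gene they tested, filterByExpr testing 35. Depth limits *Tfr2*, *Slc30a2*, *Slc30a10*, *Slc39a11*, *Slc11a1* and *Steap4*, whose lower age had at most 12 counts in a pool.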

Other observations

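Some identifiers of the authors' table carry no usual symbol but a description that places them in the same families. They were picked after their values were seen and are given as values. An identifier described as ferritin light chain (LOC100360087) had 731, 993 and 787 counts in embryonic pools, against 123, 123 and 151 in adult ones, 3.66-fold at E15, the opposite direction to *Fth1* on the TMM scale; ferritin copies make both uncertain. The identifier described as the zinc importer Slc39a10 (D4A517_RAT) had 6366, 5174 and 5100 counts in embryonic pools, against 1291, 1304 and 1318 in adult ones (2.47-fold at E15). A second identifier described as Slc39a11 (S39AB_RAT) had 21 to 30 counts in embryonic pools, against 2 to 4 in adult ones (4.22-fold at E15), the same direction as the identifier named *Slc39a11*. The identifier described as the copper transporter Slc31a2 (D4AAE7_RAT) was 3.96-fold in the adult, as *Slc31a1* was. The identifier described as the zinc exporter Slc30a7 (ZNT7_RAT) was 1.62-fold in the adult on the TMM scale, with a log2 fold change of 0.10 on the E15 side with total counts only.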
